A study of Mus musculus with 16 samples.

Results

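The list of smooth muscle contractile and cytoskeletal proteins held 49 genes, taken by gene symbol from the 54532 genes of the deposited table, and all 49 were found. It held 6 actins, 3 myosin heavy chains, 4 myosin light chains, 4 regulators of light chain phosphorylation, 4 tropomyosins, 5 calponins and transgelins and 4 other thin filament proteins. The rest were 4 intermediate filament proteins, 9 filamins, PDLIM proteins, synaptopodins and their like, 5 proteins of actin turnover and the surface molecule Mcam. By the known site of expression of each protein, 18 genes were taken as muscle isoforms, 19 as non-muscle or broadly expressed isoforms, 2 as striated muscle actins, 6 as shared and 4 as regulators of the light chain. Both groups were aortas of male Apoe-/- mice of strain C57BL/6j, 8 to 12 weeks old, so the controls also lacked apolipoprotein E, a deletion that raises plasma cholesterol. An osmotic pump gave 0.9% sodium chloride (saline, 8 libraries) or the pressor hormone angiotensin II (Ang II) at 1000 ng/kg/min (8 libraries), and the wall without its adventitia, the outer layer, was taken at day 7. The labels do not tie libraries to single mice, so each p-value measures only how these samples spread, which may be partly technical.

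Smooth muscle shortens when myosin pulls on actin filaments. The pull is switched on when myosin light chain kinase (Mylk) phosphorylates the regulatory light chain and switched off when myosin phosphatase removes the phosphate. Tropomyosin, calponin, caldesmon and leiomodin lie on or shape the actin filament, filamins and PDLIM proteins tie filaments to dense bodies and adhesions, and desmin and vimentin form the intermediate filaments. Most of these families have a muscle isoform, abundant in contractile cells, and non-muscle isoforms, used by nearly every cell for shape, division and movement. The change from muscle to non-muscle isoforms is a textbook description of vascular smooth muscle that leaves the contractile state.

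Many smooth muscle genes are known to be switched on by serum response factor, which binds the CArG box, a stretch of DNA made of CC, 6 bases that are each A or T, and GG. The pattern reads the same on both strands. Only exact matches were searched, so a window without a match may still hold a box that differs from the pattern. RefSeq windows on GRCm38.p6, from 250 bases before to 50 bases after a gene's start, were at hand for 44 of the 49 genes, in 56 windows, and not for Actg2, Actb, Myh11, Tagln and Synpo. A CArG box was present in 6 of these windows (10.7%), each of another gene, and in 535 of all 32851 windows (1.63%). The 60 bases around each box are shown on the gene's strand, 5′ to 3′, with the box in capitals. These are the windows that hold an exact match. Counted back from the start, the boxes began 47 bases before that of Actc1 (chr2:114052888-114052947, minus strand), 161 before that of Myl9 (chr2:156775278-156775337, plus strand) and 73 before that of Acta1 (chr8:123894814-123894873, minus strand). They began 56 bases before that of Cnn2 (chr10:79988519-79988578, plus strand), 50 before the inner start of Myl6 (chr10:128493025-128493084, minus strand) and 90 before that of Actg1 (chr11:120348551-120348610, minus strand). The window at the outer start of Myl6 (chr10:128493837-128494136) held no exact match.
Actc1: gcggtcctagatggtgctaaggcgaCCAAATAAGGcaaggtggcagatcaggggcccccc
Myl9: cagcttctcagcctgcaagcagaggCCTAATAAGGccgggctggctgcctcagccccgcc
Acta1: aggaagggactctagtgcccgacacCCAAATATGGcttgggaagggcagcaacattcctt
Cnn2: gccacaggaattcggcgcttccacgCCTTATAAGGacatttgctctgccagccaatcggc
Myl6: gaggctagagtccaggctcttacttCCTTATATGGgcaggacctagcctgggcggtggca
Actg1: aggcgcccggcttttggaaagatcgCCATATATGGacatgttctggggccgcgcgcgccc
Of these 6 genes, Myl9, Myl6 and Cnn2 fell with Ang II and Actc1, Acta1 and Actg1 did not pass the test. Among all tested genes 24.9% fell. The fall of Cnn2 passed in 24 of 27 alternative settings. Actc1 and Acta1 were low in most libraries, so that their not passing says little. Whether genes with a box fell more often than genes without one was not tested. The hexamer CATTCC, the core of the binding site of TEAD factors, was present on either strand in 18 of the 56 windows (32.1%) and in 14.7% of all windows. The hexamer can share its last 2 letters with the start of a CArG box, and a match here is a description of the sequence, not of binding.

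Expression was deposited as FPKM, fragments scaled to the length of the transcript and the depth of the library. Library totals ran from 14606864 to 17590088 reads with saline and from 15779125 to 19988730 reads with Ang II, and the 49 genes took 6.98% to 9.25% of the reads of a saline library and 5.09% to 6.79% of those of an Ang II library, without overlap. On the first principal component of all genes (46.9% of the variance) Ang II 2 lay at -3.06 and the other Ang II libraries at 28.3 to 37.1. On the same component Saline 2, Saline 7 and Saline 8 stood apart from the other saline libraries. In the members their deviation from the other 5 saline libraries ran with transcript length: the Spearman correlation across the 49 genes was -0.489, -0.738 and -0.523, a description of genes that share a library. In Saline 2, 22 of the 25 longer members lay below the median of those 5 libraries, while 13 of the 24 shorter ones lay above it. In Saline 7 these counts were 15 of 25 and 22 of 24, and in Saline 8 they were 20 of 25 and 14 of 24. Where leaving out these 3 libraries made or ended a call, both values are given.

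The 8 markers taken for smooth muscle were all present, with a summed FPKM of 17735 to 30321 with saline and 10446 to 17117 with Ang II. All 8 are members of the list, so this sum is not an independent check of the comparison. The summed FPKM of 8 endothelial markers was 546 to 1491 and 171 to 1297, and that of 8 fibroblast markers 63.4 to 209 and 59.1 to 188. That of 8 macrophage and monocyte markers was 10.4 to 462 with saline (median 42.2) and 35.2 to 525 with Ang II (median 154). Adipocyte markers (8 genes) summed to 99.9 to 445 (median 204) and 50.6 to 171 (median 77.5). Neural markers (5 genes) were the non-muscle list whose groups did not overlap, with 124 to 493 (median 157) and 60.7 to 116 (median 79.0). The 15 striated muscle markers summed to 39.7 to 93.6 and 32.3 to 82.6. No marker of these lists was at 0 in all libraries, the adipocyte marker Lep and the neural markers Sox10 and Th were among those with a mean under 0.5 FPKM, and the part of these cells in the results was not tested. In bulk tissue, fewer cells of a type and less RNA per cell cannot be told apart.

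With Ang II 16 of the 49 genes fell and 7 rose at an adjusted p under 0.05 (limma on log2(FPKM + 1), Benjamini-Hochberg over 15007 genes), and 26 did not pass the test. Among all tested genes 24.9% fell and 9.54% rose, 34.5% in all. The share of members that fell (32.7%) and the share that rose (14.3%) were both above these, a difference that was not tested. Without Saline 2, Ang II 3, Ang II 4 or Ang II 5, each left out singly, 4 members rose. The shares above belong to the fit of all 16 libraries, so this count cannot be compared with them. The members were chosen with earlier results of these data known. The median log2 fold change was -0.22 over the members and -0.12 over all tested genes. The isoform classes lay on different sides of that median. Of the 18 muscle isoforms 9 fell and 1 rose (median -0.39), while of the 19 non-muscle or broad isoforms 3 fell and 4 rose (median 0.23). Of the 4 light chain regulators 2 fell, of the 6 shared proteins 2 fell and 2 rose, and neither striated actin passed.

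How libraries are scaled to each other moved the rising side. After scaling by median ratios, which brings the median of all genes from -0.12 to -0.002, 13 members fell and 14 rose, against 14.1% and 15.0% of all tested genes (29.1% in all). The members that this scaling gained as higher were Myh9, Myl12a, Myl12b, Tpm3, Cfl1, Synpo and Palld, and those lost as lower were Cnn2, Pdlim7 and Tpm1. Of the non-muscle isoforms 10 then rose and 2 fell, and of the muscle isoforms 1 rose and 8 fell. With limma voom on reads recovered from the FPKM, 16 members fell and 7 rose, the same genes as with the FPKM, beside 24.3% and 9.66% of all genes (33.9% in all). Without Saline 2, Saline 7 and Saline 8, 21 members fell and 6 rose, beside 26.4% and 8.11% of all genes (34.5% in all), and of the muscle isoforms 11 fell and none rose, while of the non-muscle isoforms 4 fell and 5 rose. All 16 genes that fell with the 16 libraries fell there too. Fold changes below are on the log2(FPKM + 1) scale as deposited, on which the median gene lies at -0.12.

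**Figure D1:**
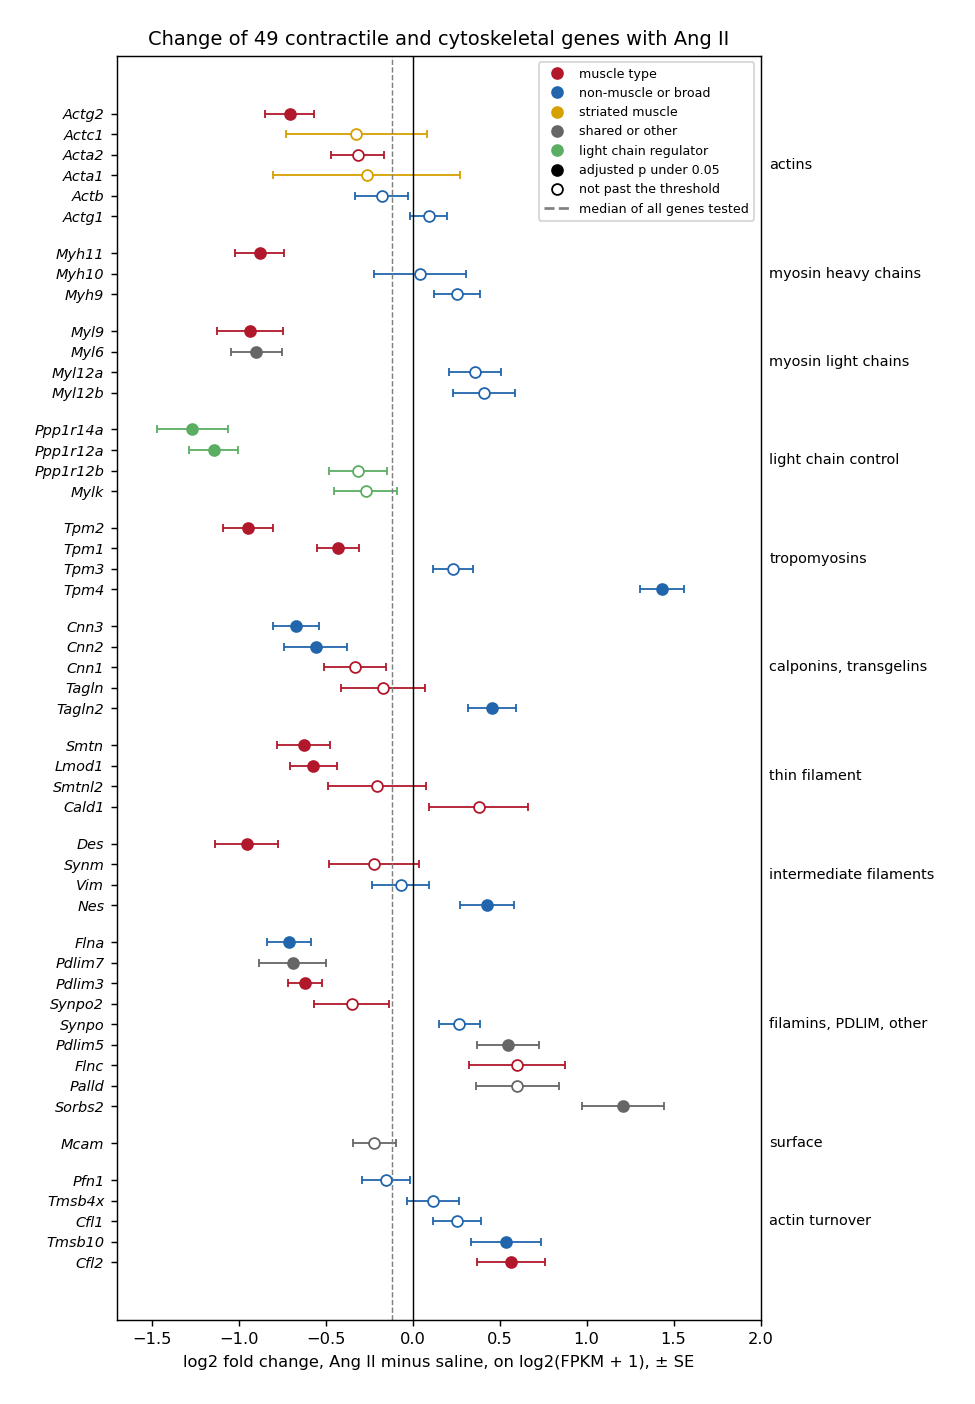
Log2 fold change of each of the 49 genes with its standard error, grouped by protein family, with filled points for an adjusted p under 0.05 (limma) and the colour giving the isoform class. The muscle isoforms Myh11, Myl9, Tpm2 and Des lie near -0.9, the non-muscle tropomyosin Tpm4 lies at 1.44, and the dashed line marks the median of all tested genes at -0.12.

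Of the 6 actins, which form the thin filament, only the gamma actin of smooth muscle passed the test. Actg2 (chr6:83512905-83536265 on GRCm38, minus strand) ran from 239.0 through a median of 336.0 to 469.1 FPKM with saline and from 153.0 through 215.1 to 281.7 with Ang II. It fell by 0.71 on the log2 scale (SE 0.14, limma adjusted p = 0.00111), and 7 of the 8 Ang II values were below all saline values. Acta2 (chr19:34241090-34255336, minus strand), the alpha actin of smooth muscle and the most abundant actin here, ran from 4829 through 6861 to 9220 FPKM with saline and from 3833 through 5632 to 6762 with Ang II. The groups overlapped, and its log2 fold change of -0.32 (SE 0.15) did not pass (limma adjusted p = 0.113), although it did after quantile normalization (-0.56, adjusted p = 0.0259), with sample weights (-0.37, adjusted p = 0.0240) and in the Wilcoxon test (adjusted p = 0.0338).

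The cytoplasmic actins did not pass either. Actb, beta actin, ran from 1901 through 2266 to 4036 FPKM with saline and from 1977 through 2280 to 2546 with Ang II, with nearly the same median in both groups (log2 fold change -0.18, limma adjusted p = 0.381). The 2 highest saline values of Actb came from Saline 7 and Saline 8, and without those libraries its log2 fold change was 0.02 (adjusted p = 0.910). Actg1, cytoplasmic gamma actin, ran from 671.5 through 841.6 to 1038 FPKM with saline and from 779.7 through 926.5 to 1025 with Ang II (0.09, adjusted p = 0.513). The actins of striated muscle were at the floor of the family: Actc1, the cardiac one, held at most 5.57 FPKM in any library (log2 fold change -0.33, adjusted p = 0.554). Acta1, the skeletal one, had a median of 1.07 FPKM with saline and 0.572 with Ang II (log2 fold change -0.26, adjusted p = 0.728), but 14.4 in Saline 2 and 16.9 in Ang II 5. In those same libraries the fast skeletal muscle genes Tnnt3, Mylpf and Tnni2 stood at 17.4, 13.4 and 11.0 FPKM and at 18.2, 13.2 and 5.81 FPKM. Saline 8 held Tnnt3 at 15.8 and Mylpf at 5.43 FPKM but Acta1 at 1.17, and outside Saline 2 and Ang II 5 Tnni2 reached 0.954 (Saline 7). The striated markers Tnnt2, Tnni3 and Ryr2 were highest in Ang II 6 (35.3 FPKM), Saline 8 (40.2) and Saline 3 (25.4). The source of these transcripts was not tested. Without Saline 2 the fold change of Acta1 was 0.11 (adjusted p = 0.872), and over all fits without 1 library it ran from -0.71 to 0.11.

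Myosin heavy chains carry the motor. Myh11 (chr16:14194535-14291372, minus strand), the heavy chain of smooth muscle myosin, ran from 1295 through 1553 to 2073 FPKM with saline and from 634.3 through 864.6 to 1153 with Ang II, and the groups did not overlap. It fell by 0.88 on the log2 scale (SE 0.14, limma adjusted p = 1.81e-04), or by 0.76 relative to the median gene. The non-muscle heavy chains did not pass over the 16 libraries. Myh9, the heavy chain of non-muscle myosin IIA, ran from 253.1 through 327.6 to 471.8 FPKM with saline and from 343.3 through 394.3 to 525.3 with Ang II. Its log2 fold change of 0.25 (SE 0.13) did not pass (adjusted p = 0.139), and it passed after median ratio scaling (0.40, adjusted p = 0.0249).

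Myh10, the heavy chain of non-muscle myosin IIB, showed how much the saline libraries that stand apart can matter. It ran from 79.2 through 211.6 to 264.4 FPKM with saline, where Saline 7, Saline 8 and Saline 2 held the 3 lowest values, and from 114.5 through 180.8 to 222.9 with Ang II. Over the 16 libraries its log2 fold change was 0.04 (SE 0.26, adjusted p = 0.912). Without those 3 libraries it was -0.46 (adjusted p = 0.0326), so that no direction for Myh10 holds across these settings.

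Of the myosin light chains, the smooth muscle one and the shared one fell and the non-muscle ones did not pass. Myl9 (chr2:156775420-156781658, plus strand), the regulatory light chain of smooth muscle and the member with the highest mean FPKM, ran from 6720 through 8798 to 14850 FPKM with saline and from 3829 through 4804 to 6281 with Ang II. The groups did not overlap, and Myl9 fell by 0.94 (SE 0.19, limma adjusted p = 0.00125). The 2 highest saline values were those of Saline 7 and Saline 8, and without Saline 2, Saline 7 and Saline 8 it fell by 0.69 (adjusted p = 0.00519). Myl6, the essential light chain that smooth and non-muscle myosin share, ran from 4724 through 5537 to 8298 FPKM with saline and from 2450 through 3169 to 3908 with Ang II. It fell by 0.90 (SE 0.15, adjusted p = 2.27e-04), again with no overlap.

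The non-muscle regulatory light chains Myl12a and Myl12b did not pass, and both fold changes were above 0. Myl12a ran from 129.7 through 142.8 to 290.3 FPKM with saline and from 152.0 through 213.6 to 229.2 with Ang II (log2 fold change 0.36, SE 0.15, limma adjusted p = 0.0706). Its highest value of all was that of Saline 7, without which the fold change of Myl12a was 0.49 (adjusted p = 0.00255). It also passed without Ang II 8 (adjusted p = 0.0418) and without Saline 2, Saline 7 and Saline 8 (0.43, adjusted p = 0.00609). Myl12b was listed at only 2.72 through 7.42 to 9.17 FPKM with saline and 7.11 through 8.90 to 13.1 with Ang II (0.41, SE 0.18, adjusted p = 0.0856). In the annotation 26.7% of the exon bases of Myl12b and 19.9% of those of Myl12a overlap other gene models, among them a longer model with the symbol Myl12b, so the levels of both genes are uncertain.

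Of the proteins that set light chain phosphorylation, a subunit of the phosphatase and an inhibitor of the phosphatase fell. Ppp1r12a (chr10:108162193-108284475, plus strand) encodes MYPT1, the subunit that targets myosin phosphatase to myosin. It ran from 311.9 through 491.8 to 610.8 FPKM with saline and from 181.0 through 205.5 to 312.5 with Ang II, where only Ang II 8 reached the lowest saline library. It fell by 1.14 (SE 0.14, limma adjusted p = 1.51e-05), a 2.21-fold difference. Ppp1r14a (chr7:29289308-29293801, plus strand) encodes CPI-17, which inhibits the same phosphatase, and had the most negative log2 fold change of the 49 genes. It ran from 717.9 through 805.5 to 1713 FPKM with saline and from 265.4 through 407.8 to 603.6 with Ang II, without overlap. Ppp1r14a fell by 1.27 (SE 0.20, adjusted p = 1.99e-04), and by 0.97 (adjusted p = 3.61e-04) without Saline 2, Saline 7 and Saline 8.

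The kinase and the second targeting subunit did not pass over the 16 libraries. Mylk, the light chain kinase, held 478 ± 141 FPKM with saline and 387 ± 77.4 with Ang II (mean ± SD, n = 8 per group; log2 fold change -0.27, limma adjusted p = 0.256). Ppp1r12b, the related targeting subunit, held 349 ± 94.0 and 277 ± 55.2 FPKM (-0.31, adjusted p = 0.156). For both the lowest saline library was Saline 8. Without Saline 2, Saline 7 and Saline 8 both fell, Mylk by 0.53 (adjusted p = 0.0166) and Ppp1r12b by 0.56 (adjusted p = 0.00970).

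**Figure D2:**
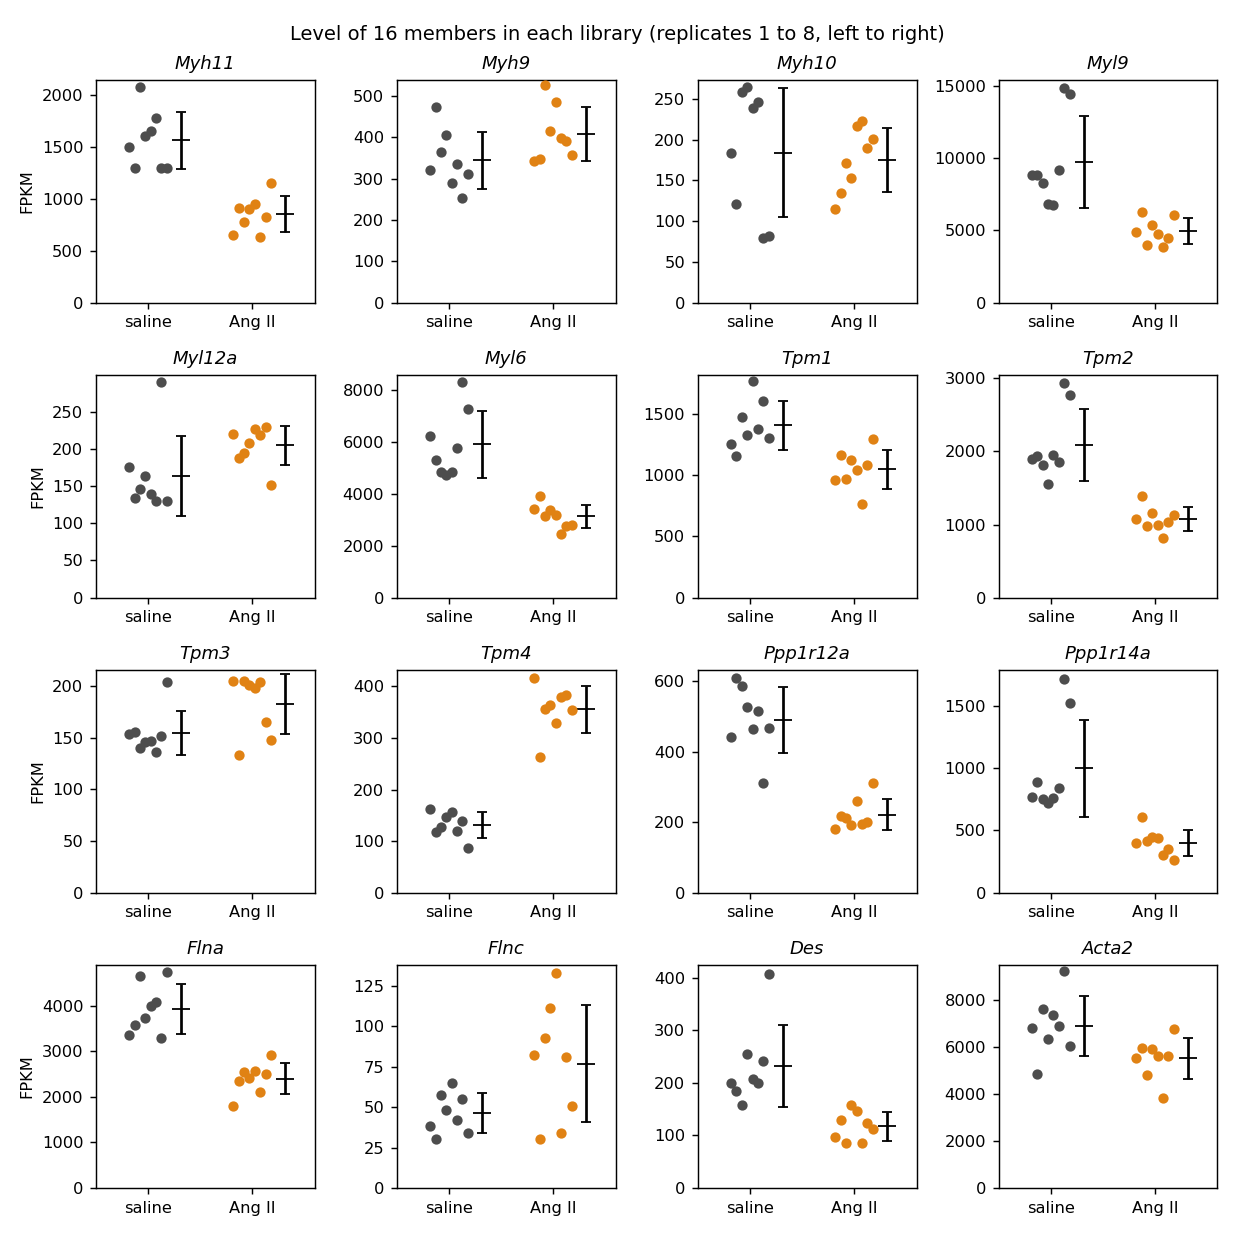
FPKM of 16 genes in each library, with replicates 1 to 8 from left to right in each group and a bar for mean ± SD (n = 8). The groups do not overlap for Myh11, Myl9, Myl6, Tpm2, Tpm4, Ppp1r14a and Flna, while the saline values of Myh10 spread from 79.2 to 264.4.

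Tropomyosins run along the actin filament and govern the access of myosin and other proteins to it, and they held the widest division between isoforms. Tpm4 (chr8:72134975-72153142, plus strand), a short tropomyosin of non-muscle cells, ran from 86.1 through 133.3 to 162.9 FPKM with saline and from 263.0 through 360.3 to 415.3 with Ang II. The lowest Ang II value lay above the highest saline value. Tpm4 rose by 1.44 on the log2 scale (SE 0.13, limma adjusted p = 5.26e-07), a 2.71-fold difference and the smallest p of the 49 genes. It rose in each of the 27 alternative settings, with log2 fold changes of 1.31 (adjusted p = 2.37e-06) without Saline 2, Saline 7 and Saline 8 and 1.58 (adjusted p = 1.59e-07) after median ratio scaling.

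The muscle tropomyosins went the other way. Tpm2 (chr4:43514711-43523765, minus strand), the beta tropomyosin, ran from 1559 through 1913 to 2941 FPKM with saline and from 817.9 through 1052 to 1384 with Ang II, without overlap. It fell by 0.94 (SE 0.14, limma adjusted p = 1.20e-04). Tpm1, whose gene makes muscle and non-muscle isoforms by splicing that a gene-level table does not separate, ran from 1152 through 1354 to 1768 and from 764.2 through 1062 to 1298 FPKM. It fell by 0.43 (SE 0.12, adjusted p = 0.0121), a call lost after median ratio scaling (-0.28, adjusted p = 0.107). The call of Tpm1 was also lost after quantile normalization (-0.32, adjusted p = 0.0613). Tpm3, another mostly non-muscle gene, ran from 136.4 through 149.3 to 204.2 FPKM with saline and from 133.8 through 199.7 to 205.4 with Ang II. Its log2 fold change of 0.23 (SE 0.11) did not pass (adjusted p = 0.120). It passed without Saline 8 (adjusted p = 0.0365), which held the highest saline value of Tpm3, without Ang II 2 (adjusted p = 0.0413) and without Saline 2, Saline 7 and Saline 8 (0.32, adjusted p = 0.0383).

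Calponins bind actin and hold back myosin, and here the division by isoform class was not seen. Cnn1, the calponin of smooth muscle, ran from 1521 through 1677 to 3055 FPKM with saline and from 851.8 through 1546 to 1852 with Ang II (log2 fold change -0.33, SE 0.18, limma adjusted p = 0.152). It was the broadly expressed calponins that fell. Cnn3 ran from 336.8 through 493.8 to 561.7 FPKM with saline and from 233.1 through 280.5 to 402.6 with Ang II, and fell by 0.67 (SE 0.13, adjusted p = 0.00119). Cnn2 ran from 185.7 through 208.8 to 493 and from 145.8 through 165.6 to 207.9 FPKM and fell by 0.56 (SE 0.18, adjusted p = 0.0238). The fall of Cnn2 was 0.24 (adjusted p = 0.0499) without Saline 2, Saline 7 and Saline 8. Its call was lost after median ratio scaling (-0.41, adjusted p = 0.120), after quantile normalization (-0.40, adjusted p = 0.0587) and with no filter. Of the exon bases of Cnn3 17.7% overlap another gene model.

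The transgelins are small calponin-like actin binders. Tagln2, the transgelin of non-muscle cells, ran from 329.9 through 434.3 to 633.6 FPKM with saline and from 452.9 through 625.1 to 758.5 with Ang II. It rose by 0.46 (SE 0.14, limma adjusted p = 0.0165) and in all 27 alternative settings. Tagln, the smooth muscle transgelin known as SM22 alpha, was listed at 45.8 through 57.2 to 119.1 FPKM with saline and 30.3 through 56.5 to 101.8 with Ang II (-0.17, adjusted p = 0.604). The gene models Pcsk7 and Gm48529 cover 67.9% of its exon bases in the annotation, so the level of Tagln is uncertain.

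Among the other thin filament proteins, smoothelin and leiomodin fell. Smtn (chr11:3517523-3540612, minus strand), a marker of contractile smooth muscle, ran from 635.5 through 833.9 to 1337 FPKM with saline and from 405.5 through 558.5 to 717.4 with Ang II and fell by 0.63 (SE 0.15, limma adjusted p = 0.00501), a call that Smtn lost after quantile normalization (-0.35, adjusted p = 0.0561). Other gene models overlap 16.3% of the exon bases of Smtn. Lmod1, leiomodin 1, which nucleates actin filaments in smooth muscle, ran from 190.4 through 227.5 to 255.3 and from 88.0 through 163.8 to 175.3 FPKM. It fell by 0.57 (SE 0.13, adjusted p = 0.00349), with no overlap. Cald1, caldesmon, whose gene makes a muscle and a non-muscle form, held 667 ± 300 FPKM with saline and 794 ± 186 with Ang II (0.38, adjusted p = 0.314). For Cald1 the sign itself depended on the libraries, since it was -0.16 (adjusted p = 0.486) without Saline 2, Saline 7 and Saline 8. Smtnl2, a smoothelin-like gene, was low at 3.05 ± 1.34 and 2.65 ± 1.65 FPKM (adjusted p = 0.598).

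Of the intermediate filament genes the muscle protein desmin fell and nestin rose. Des (chr1:75360329-75368579, plus strand) ran from 156.9 through 204.1 to 408.1 FPKM with saline and from 84.7 through 118.5 to 158.0 with Ang II, where 7 of 8 values lay below all saline values. It fell by 0.95 (SE 0.18, limma adjusted p = 7.12e-04). Vim, vimentin, the intermediate filament of mesenchymal cells, was far more abundant, with 2141 through 3888 to 4787 FPKM and 3113 through 3403 to 3978 FPKM, and did not pass (-0.07, adjusted p = 0.774; 0.08, adjusted p = 0.709, after median ratio scaling). Nes, nestin, known from stem and dividing cells, ran from 41.2 through 56.7 to 76.0 and from 57.3 through 74.8 to 105.2 FPKM and rose by 0.43 (SE 0.15, adjusted p = 0.0394). The call of Nes is a weak one. It was lost when any of 8 libraries was left out, Saline 1, 2, 6 or 8 (adjusted p = 0.0574, 0.0795, 0.0620 and 0.0668) or Ang II 3, 4, 5 or 6 (0.0733, 0.0699, 0.0805 and 0.0773), and without Saline 2, Saline 7 and Saline 8 together (0.31, adjusted p = 0.125). Synm, synemin, which joins desmin and vimentin filaments, held 21.8 ± 9.53 and 17.1 ± 4.11 FPKM (-0.22, adjusted p = 0.522), and fell by 0.72 without those 3 saline libraries (adjusted p = 0.00227).

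The filamins, which cross-link actin and tie it to membrane and Z-disc or dense body, differed in that the broadly expressed one fell and the muscle one did not pass. Flna (chrX:74223461-74249820, minus strand), the broadly expressed filamin A, ran from 3295 through 3862 to 4748 FPKM with saline and from 1803 through 2465 to 2919 with Ang II, without overlap. It fell by 0.71 (SE 0.13, limma adjusted p = 4.44e-04). Flnc, filamin C, best known from striated muscle, ran from 30.0 through 45.2 to 65.2 FPKM with saline and from 30.5 through 81.8 to 132.9 with Ang II. Its Ang II libraries were split, with 5 above every saline library and Ang II 2, Ang II 6 and Ang II 8 among the saline values, and the log2 fold change of 0.60 (SE 0.28) did not pass (adjusted p = 0.102). Flnc passed without Ang II 2 (adjusted p = 0.0271) or without Ang II 6 (adjusted p = 0.0411).

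PDLIM proteins carry a PDZ domain that binds alpha-actinin and LIM domains that bind partners. Pdlim3 (chr8:45885461-45919548, plus strand), the muscle one, had the smallest spread of any member in the saline group, a coefficient of variation of 8.02%. It ran from 285.3 through 337.0 to 363.7 FPKM with saline and from 161.4 through 214.8 to 272.6 with Ang II, without overlap, and fell by 0.62 (SE 0.10, limma adjusted p = 1.83e-04). Pdlim7, enigma, held 619 ± 269 FPKM with saline and 363 ± 58.6 with Ang II and fell by 0.69 (SE 0.19, adjusted p = 0.0106), a call lost after median ratio scaling (-0.54, adjusted p = 0.0611). Pdlim5, the related ENH, held 142 ± 42.1 and 201 ± 33.3 FPKM and rose by 0.55 (SE 0.18, adjusted p = 0.0260). Without Saline 2, Saline 7 and Saline 8 the call of Pdlim5 was lost (0.31, adjusted p = 0.103).

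Of the adaptors, Sorbs2 (chr8:45507788-45827906, plus strand), a protein with SH3 domains found at stress fibres and Z-discs, had the second largest rise of the list. It ran from 16.5 through 41.5 to 65.5 FPKM with saline and from 71.4 through 84.5 to 123.0 with Ang II, without overlap. It rose by 1.21 (SE 0.24, limma adjusted p = 0.00102), and by 0.79 (adjusted p = 0.00150) without Saline 2, Saline 7 and Saline 8. Palld, palladin, an actin-bundling scaffold, held 52.2 ± 21.9 and 74.5 ± 15.3 FPKM (0.60, adjusted p = 0.0568). Palld passed without Saline 3 (adjusted p = 0.0398), Saline 4 (0.0195), Saline 5 (0.0453) or Ang II 2 (0.0404), but its fold change was 0.17 (adjusted p = 0.403) without Saline 2, Saline 7 and Saline 8.

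The synaptopodins and the surface molecule did not pass. Synpo, an actin binder first known from kidney and brain, held 202 ± 26.2 FPKM with saline and 245 ± 41.9 with Ang II (0.27, limma adjusted p = 0.0815). It passed without Ang II 1 (adjusted p = 0.0421). Synpo2, the related muscle protein, held 157 ± 58.7 and 118 ± 25.9 FPKM (-0.35, adjusted p = 0.219), and fell by 0.73 without Saline 2, Saline 7 and Saline 8 (adjusted p = 0.00328). Mcam, the adhesion molecule CD146 of smooth muscle and endothelium, held 782 ± 160 and 665 ± 80.8 FPKM (-0.22, adjusted p = 0.183).

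Of the 5 proteins of actin turnover 2 rose and none fell, and both calls were weak. Cfl2, the cofilin of muscle, which severs filaments, ran from 38.5 through 101.3 to 125.9 FPKM with saline and from 107.0 through 139.1 to 153.2 with Ang II and rose by 0.56 (SE 0.20, limma adjusted p = 0.0331). The call of Cfl2 was lost without Saline 2 (adjusted p = 0.0662), without Ang II 1, 3, 4, 5, 7 or 8 (0.0525, 0.0518, 0.0543, 0.0589, 0.0556 and 0.0568) and without Saline 2, Saline 7 and Saline 8 (0.26, adjusted p = 0.0582). Tmsb10, thymosin beta 10, which binds actin monomers, held 169 ± 57.5 and 243 ± 63.3 FPKM and rose by 0.54 (SE 0.20, adjusted p = 0.0475). Only 3 of the 16 fits that leave out a library kept the call of Tmsb10, those without Saline 7, Saline 8 or Ang II 8, and in the other 13 the adjusted p ran from 0.0558 (without Ang II 2) to 0.0935 (without Ang II 1). Without Saline 2, Saline 7 and Saline 8 Tmsb10 rose by 0.80 (adjusted p = 0.00366).

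The other turnover genes did not pass. Cfl1, the cofilin of non-muscle cells, ran from 199.6 through 318.9 to 428.9 FPKM with saline and from 326.3 through 359.8 to 430.9 with Ang II (0.25, SE 0.14, limma adjusted p = 0.157), and passed after median ratio scaling (0.40, adjusted p = 0.0362). Another gene model overlaps 16.5% of the exon bases of Cfl1. Tmsb4x, the main actin monomer binder here, held 4402 ± 795 and 4778 ± 912 FPKM (0.11, adjusted p = 0.571). Pfn1, profilin 1, which feeds monomers to growing filaments, held 652 ± 157 and 581 ± 88.5 FPKM (-0.15, adjusted p = 0.403).

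**Figure D3:**
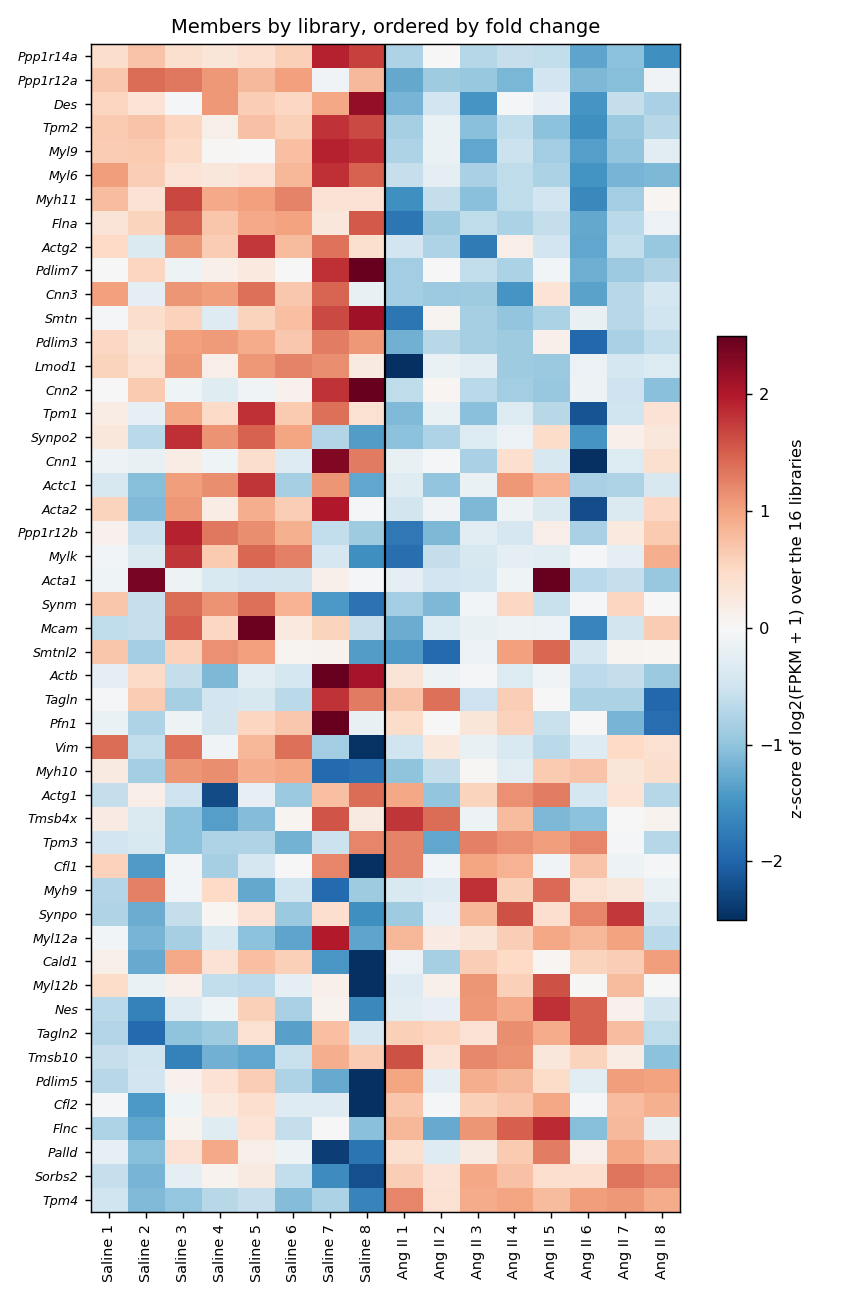
z-score of log2(FPKM + 1) over the 16 libraries for each of the 49 genes, ordered by log2 fold change, with colours held at 2.5 on either side. The genes at the top fell and those at the bottom rose in most Ang II libraries, and Saline 7 and Saline 8 stand apart within the saline group in the middle and lower rows.

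Between libraries, the members varied more with saline than with Ang II, as a description. The median coefficient of variation was 26.7% with saline and 18.2% with Ang II, and 37 of the 49 genes had the lower value with Ang II. This spread was not computed over all genes, so it cannot be called particular to the members. Some libraries held many of the extreme values: of all 16, Saline 7 held the highest value of 12 members, Saline 8 the highest of 6 and the lowest of 11, and Ang II 6 the lowest of 11. Groups did not overlap for 10 of the 49 genes, of which Tpm4 and Sorbs2 were higher and Myh11, Myl9, Myl6, Ppp1r14a, Tpm2, Lmod1, Flna and Pdlim3 lower with Ang II. Over all tested genes 2.74% were higher and 5.62% lower without overlap, 8.36% in all.

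A ratio of a muscle to a non-muscle isoform within a library does not depend on how libraries are scaled to each other, so the isoforms of a family were also compared as ratios. Of 19 such pairs 14 had a lower ratio with Ang II, 1 a higher ratio and 4 did not pass (exact two-sided permutation test of the mean log2 ratio over 12870 assignments, adjusted over the 19 pairs). Pairs of a family share genes and are not independent. The tropomyosin pairs differed most. Tpm2/Tpm4 ran from 10.6 through 14.9 to 32.2 with saline and from 2.16 through 2.90 to 5.26 with Ang II, a log2 difference of -2.39 (SE 0.23, exact permutation adjusted p = 5.91e-04) or 5.23-fold. Tpm1/Tpm4 ran from 7.69 through 11.4 to 15.1 and from 2.02 through 2.95 to 4.42, a difference of -1.87 (SE 0.16, exact permutation adjusted p = 5.91e-04). In both pairs the groups did not overlap. The same was true of Tpm2/Tpm3 (-1.18, SE 0.18), Myl9/Myl12a (-1.30, SE 0.21) and Myl9/Myl12b (-1.41, SE 0.33). Each was at the smallest p that the 12870 assignments allow (1.55e-04, exact permutation adjusted p = 5.91e-04). The levels of Myl12a, Myl12b and Tagln are uncertain, and so are the ratios that hold them. Without Saline 2, Saline 7 and Saline 8 Myl9/Myl12a differed by -1.13 and Myl9/Myl12b by -1 (exact permutation adjusted p = 0.00369 and 0.00492).

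Among the motor proteins, Myh11/Myh9 ran from 2.75 through 4.91 to 5.71 with saline and from 1.48 through 2.04 to 3.22 with Ang II, a log2 difference of -1.14 (SE 0.18, exact permutation adjusted p = 8.44e-04). Only 1 Ang II library reached the lowest saline library, Saline 2. Myh11/Myh10 ran from 6.07 through 8.08 to 16.4 and from 2.85 through 5.13 to 6.82 (-0.92, SE 0.24, exact permutation adjusted p = 8.44e-04), and without Saline 2, Saline 7 and Saline 8 the difference was -0.56 (exact permutation adjusted p = 0.00984). These pairs held in each fit that left out a library.

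The actin pairs depended on which cytoplasmic actin was the partner. Actg2/Actg1 ran from 0.267 through 0.434 to 0.547 with saline and from 0.163 through 0.237 to 0.280 with Ang II (log2 difference -0.80, SE 0.15, exact permutation adjusted p = 0.00111). Actg2/Actb (-0.53, SE 0.20, exact permutation adjusted p = 0.0274) and Acta2/Actg1 (-0.41, SE 0.15, exact permutation adjusted p = 0.0274) overlapped more. Actg2/Actb did not pass without Ang II 3 (exact permutation adjusted p = 0.0510), nor Acta2/Actg1 without Saline 7, Ang II 3 or Ang II 6 (0.0542, 0.0510 and 0.0531). Acta2/Actb ran from 1.67 through 3.08 to 3.59 and from 1.83 through 2.48 to 3.42 and did not pass (-0.14, SE 0.18, exact permutation adjusted p = 0.444). Without Saline 2, Saline 7 and Saline 8, which held the 3 lowest values of the saline group, the difference was -0.43 (exact permutation adjusted p = 0.0127).

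Of the remaining pairs, Tpm1/Tpm3 was lower by a log2 difference of -0.66 (exact permutation adjusted p = 0.00945). Des/Vim differed by -0.89 (SE 0.31, exact permutation adjusted p = 0.0107), with Saline 8 far above the others, and did not pass without Saline 2, Saline 7 and Saline 8 (-0.49, exact permutation adjusted p = 0.0581). Synpo2/Synpo differed by -0.62 (exact permutation adjusted p = 0.0274) and did not pass without Ang II 6 (0.0531). Tagln/Tagln2 differed by -0.63 (exact permutation adjusted p = 0.0303), and did not pass in 7 of the 16 fits without a library, those without Saline 2, 7 or 8 (0.0598, 0.0555 and 0.0546) or Ang II 3, 6, 7 or 8 (0.0510, 0.0552, 0.0547 and 0.0573). Without Saline 2, Saline 7 and Saline 8 together the difference of Tagln/Tagln2 was -0.32 (exact permutation adjusted p = 0.241), and the difference in medians did not pass (0.0718). Flnc/Flna was the pair that went up, from 0.00714 through 0.0119 to 0.0168 with saline to 0.0130 through 0.0345 to 0.0519 with Ang II (1.32, SE 0.32, exact permutation adjusted p = 0.00295), with 6 Ang II libraries above every saline library.

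The pairs Cnn1/Cnn2 (0.23, SE 0.20, exact permutation adjusted p = 0.301), Cnn1/Cnn3 (0.34, SE 0.20, 0.124) and Cfl2/Cfl1 (0.32, SE 0.17, 0.0945) did not pass, and their differences were above 0. Cnn1/Cnn3 passed without Saline 8 (exact permutation adjusted p = 0.0350) and without Saline 2, Saline 7 and Saline 8 (0.61, 0.00805). Cnn1/Cnn2 passed without Ang II 6 (exact permutation adjusted p = 0.0418) and Cfl2/Cfl1 without Saline 4 (0.0450) or Saline 5 (0.0457).

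**Figure D4:**
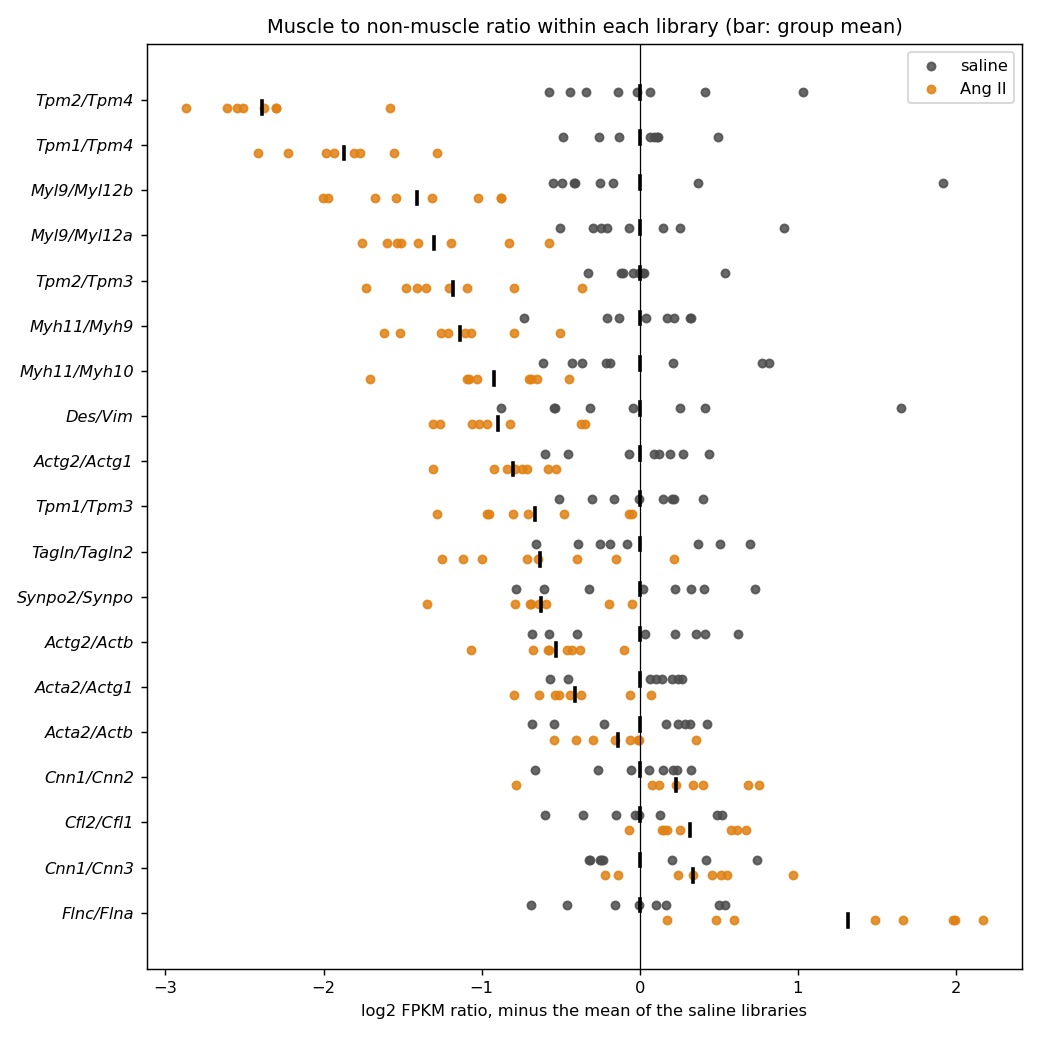
Log2 ratio of the FPKM of a muscle to a non-muscle isoform in each library, minus the mean of the saline libraries, for 19 pairs, with bars for the group means. Ang II points lie left of every saline point for Tpm2/Tpm4, Tpm1/Tpm4, Myl9/Myl12b, Myl9/Myl12a and Tpm2/Tpm3, and right of most saline points for Flnc/Flna.

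Levels of different genes can be compared only per length, and FPKM here mostly divides by the mean length of a gene's annotated transcripts, which for Actb is 876 bases against 1920 for its longest coding transcript. Acta2, Synpo2 and Cfl1 were on another length, 1781 bases for Acta2 against 2035 for its longest coding transcript. The shares of Tpm4, Myh11, Acta2 and Actb are therefore given on both scales, and the other shares on the FPKM scale only. Tpm4 made up 3.57% ± 0.893 of the summed tropomyosin FPKM with saline and 13.6% ± 2.56 with Ang II (mean ± SD, n = 8 per group), or 3.80% and 14.6% per longest coding transcript. Over the same libraries Tpm2 went from 54.8% ± 5.46 to 40.2% ± 2.94 and Tpm3 from 4.12% ± 0.556 to 6.99% ± 1.64, while Tpm1 held 37.5% ± 4.90 and 39.3% ± 2.79. The lowest Tpm4 share with Ang II (8.93%) was above the highest with saline (4.71%).

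Of the myosin heavy chains, Myh11 made up 74.8% ± 3.57 of the family FPKM with saline and 59.1% ± 5.74 with Ang II, and its ranges did not overlap (68.6% to 79.6% and 50.5% to 67.4%). Per longest coding transcript the Myh11 share was 88.0% and 78.2%, so smooth muscle myosin remained the main heavy chain on either scale. Myh9 had a share of 16.7% ± 3.83 and 28.7% ± 4.44 of the FPKM, and Myh10 of 8.49% ± 2.74 and 12.3% ± 2.61. Myl9 made up 98.2% ± 0.470 and 95.7% ± 1.05 of the regulatory light chains, shares that rest on the uncertain levels of Myl12a and Myl12b.

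The make-up of the actins and calponins was closer between the groups. Acta2 made up 64.2% ± 5.71 of the actin FPKM with saline and 61.7% ± 4.31 with Ang II, Actb 24.4% ± 5.19 and 25.6% ± 3.15, Actg1 8.09% ± 1.24 and 10.3% ± 1.34, and Actg2 3.27% ± 0.521 and 2.39% ± 0.346. Per longest coding transcript the share of Acta2 was 75.9% with saline and 74.1% with Ang II, and that of Actb 15.2% and 16.1%. Cnn1 made up 71.9% ± 2.35 and 76.0% ± 5.02 of the calponin FPKM. The shares were not tested, since they hold the same values as the ratios above.

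**Figure D5:**
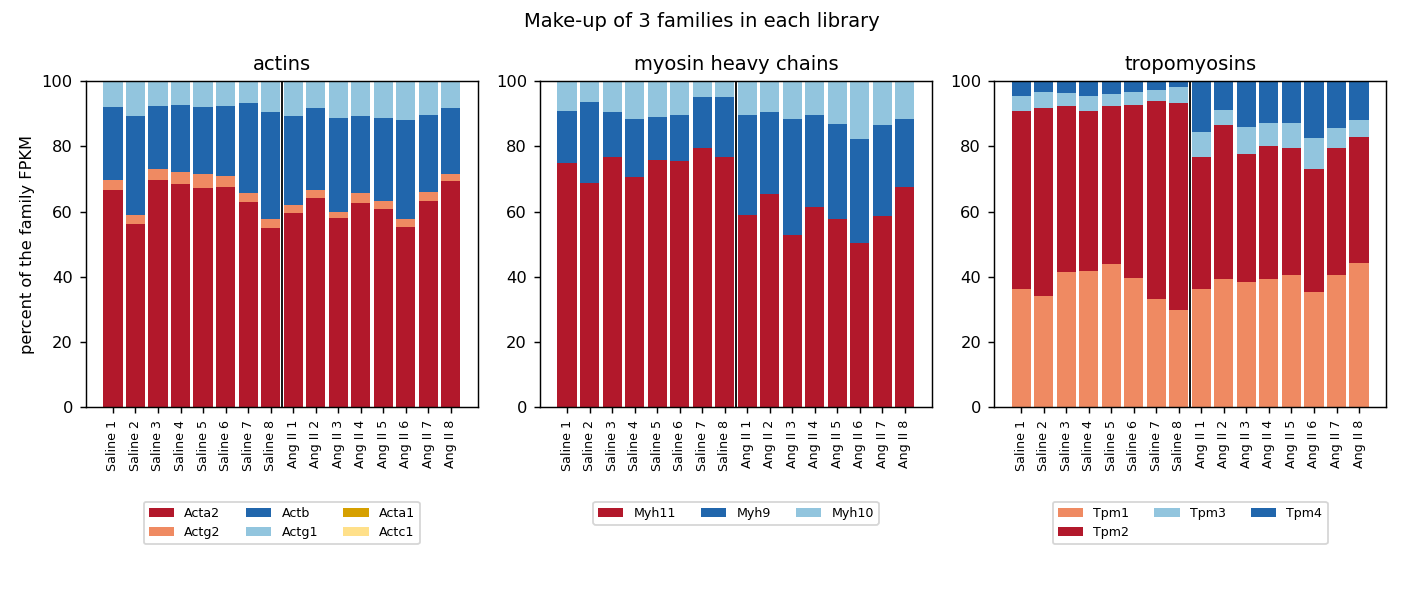
Percent of the summed FPKM of the actins, myosin heavy chains and tropomyosins that each gene holds in every library, with saline left and Ang II right of the vertical line. The dark blue Tpm4 band is between 8.93% and 17.5% in the Ang II libraries and at most 4.71% in the saline libraries, and the red Myh11 band is lower in each Ang II library than in each saline library.

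Other genes of the same machinery were counted on 3 further lists with 72 genes, of which 12 rose (16.7%) and 16 fell (22.2%), with a median of 0.10, beside 9.54% and 24.9% of all tested genes. Of 18 genes that control light chain phosphorylation 3 rose (16.7%) and 3 fell (16.7%; median 0.24). Prkca, protein kinase C alpha, which phosphorylates CPI-17, went from 5.90 ± 2.09 to 10.4 ± 2.03 FPKM and rose by 0.76 (SE 0.18, limma adjusted p = 0.00371). Arhgef1, an activator of RhoA downstream of the Ang II receptor, held 265 ± 145 and 145 ± 38.8 FPKM and fell by 0.75 (SE 0.24, adjusted p = 0.0235), a call lost after median ratio scaling (-0.61, adjusted p = 0.0798). The RhoA kinases Rock1 and Rock2 did not pass (-0.28 and 0.24, adjusted p = 0.362 and 0.233), nor did Rhoa itself (0.41, adjusted p = 0.0818). After median ratio scaling Rhoa (0.56, adjusted p = 0.0180) and Rock2 (0.39, adjusted p = 0.0497) passed as higher.

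Of 22 actin binders of dense bodies and adhesions 7 fell (31.8%) and 1 rose (4.55%), with a median of -0.06. Pdlim4, a relative of Pdlim3, fell from 82.0 ± 17.4 to 32.7 ± 7.59 FPKM, by 1.30 on the log2 scale (SE 0.15, limma adjusted p = 6.45e-06), and zyxin (Zyx), which marks adhesions and stress fibres under tension, from 770 ± 253 to 358 ± 51.1 FPKM, by 1.06 (SE 0.16, adjusted p = 9.48e-05). The groups did not overlap in either. Ldb3, a Z-disc relative of the PDLIM proteins, was the gene that rose (0.29, SE 0.10, adjusted p = 0.0383).

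Of 32 genes of actin assembly and turnover 8 rose (25%) and 6 fell (18.8%), with a median of 0.22. Diaph3, a formin that nucleates and elongates actin filaments, rose from 0.342 ± 0.158 to 3.64 ± 0.938 FPKM, by 1.77 on the log2(FPKM + 1) scale (SE 0.13, limma adjusted p = 8.44e-08). With saline its mean was under the filter of 0.5 FPKM, so Diaph3 was tested only through its Ang II values. Its call is therefore not independent of the filter. The related Diaph1 fell from 26.4 ± 2.27 to 17.7 ± 1.70 FPKM, by 0.55 (SE 0.08, adjusted p = 1.25e-04). Moesin (Msn), a linker of actin to the membrane, rose by 0.93 (SE 0.23, adjusted p = 0.00583). The gene with the most negative change among those that fell was Twf2, twinfilin 2, at -0.69 (SE 0.17, adjusted p = 0.00602), next to Cap2, the cyclase-associated protein of muscle, at -0.68 (SE 0.09, adjusted p = 4.22e-05). After median ratio scaling 14 of these 32 genes rose and 3 fell, of the 22 binders 2 rose and 4 fell, and of the 18 phosphorylation genes 6 rose and 1 fell, beside 15.0% and 14.1% of all tested genes.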

How the data were processed

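RNA of 16 mouse aorta samples was extracted with Trizol and sequenced, per the labels' protocols. One table of FPKM per gene and library was deposited by the authors, and the submitters' processing notes name GRCm38 (mm10). The sources used here do not give the aligner, the counting tool or any use of strand. Groups and replicate numbers came from the sample titles, and columns were matched by library name. Of the gene IDs 99.9% were found in GENCODE M21 and 98.2% of those had the same coordinates.

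Members were tested in R 4.3.3 by limma 3.58.1 (trend option on) with log2(FPKM + 1) as the value. Genes needed a mean FPKM of 0.5 or more, and the test was two-sided, with Benjamini-Hochberg adjustment over all 15007 tested genes, a threshold of 0.05 and no covariate. Isoform ratios were tested with an exact permutation test in Python 3.11.15 (scipy 1.17.1). Whole reads were recovered from the FPKM with the mean transcript length, or another length for 905 genes (95.8% to 96.3% of values whole within 0.02 of a read, 31389 of 31423 genes), and limma voom on them, added after seeing the data, called the same 7 members higher and 16 lower (9.66% and 24.3% of all genes). The other alternatives were a pseudocount of 0.1, other filters, quantile and median ratio scaling, a replicate block, sample weights, a Wilcoxon test and leaving out libraries. Tests were checked on simulated data.

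All 49 members are reported, while 1 marker of another cell type is not reported here. Library values are given for members of isoform pairs other than Synpo and Synpo2, and for the most changed called member of each family. Other genes are named where most changed in their list, with a few more chosen after their values were seen. The members and lists were chosen with earlier results of these data known.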

Additional observations from a re-analysis of the deposited data

Results flagged for a closer look

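In 13 of the 136 groups of 8 values checked (49 genes and 19 ratios, saline and Ang II apart), 1 library was farther from the others than Dixon's 95% critical value of 0.526 allows, where chance gives about 1 in 20 groups. Of these 13, 6 concerned Saline 8: Myl12b at 2.72 FPKM, its lowest value, Tpm3 at 204.2 FPKM, Des at 408.1 FPKM, and the ratios Myl9/Myl12a at 111.1, Myl9/Myl12b at 5302 and Des/Vim at 0.191, each the highest of the saline group. In Saline 7 the values of Myl12a (290.3 FPKM), Pfn1 (1015 FPKM) and Tpm2/Tpm3 (19.4) were the highest of the saline group and stood apart. Acta1 stood apart at 14.4 FPKM in Saline 2 (next value 1.51) and at 16.9 FPKM in Ang II 5 (next value 1.10). Lmod1 was lowest in Ang II 1 at 88.0 FPKM (next value 141.8), and Tpm2/Tpm4 was highest among the Ang II libraries in Ang II 2 at 5.26, still below every saline library. The cause was not tested for any of them.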

How the results depend on the processing

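Over 27 alternatives the calls of Actg2, Myh11, Myl9, Myl6, Ppp1r12a, Ppp1r14a, Tpm2, Tpm4, Cnn3, Tagln2, Lmod1, Des, Flna, Pdlim3 and Sorbs2 all held, and all 16 falls held in each of the 16 fits without a library. The number of members that rose (7) was 3 with no filter, 16 with quantile normalization, 14 with median ratio scaling, 14 with sample weights and 4 to 9 without a library (4 without Saline 2, Ang II 3, Ang II 4 or Ang II 5). Of all tested genes 4.12%, 15.1%, 15.0% and 11.3% rose in the first 4 of these settings. The falls (16) were 15 with no filter, 15 with quantile normalization and 13 with median ratio scaling (14.1% of all genes, against 24.9% as deposited). With sample weights 23 fell (33.7% of all genes), a gain of Acta2, Mcam, Mylk, Ppp1r12b, Synm, Synpo2 and Vim. Since the share of all genes moves with the setting, counts given here without that share cannot be compared with the table. Of the 72 other actomyosin genes the rises (12) were 19 with quantile normalization and 22 with median ratio scaling, and the falls (16) were 10 with no filter, 8 with quantile normalization and 8 with median ratio scaling. The isoform ratios that rose (1) were 2 without Saline 7 and Saline 8, 2 without Saline 2, Saline 7 and Saline 8 and 1 to 2 without a library. Same-numbered samples correlated at -0.246 to 0.385 in their deviations from the group means, over 0.1 in 5 of 8 pairs, so the numbers were not taken as pairs. With the replicate block 8 members rose, with Flnc (adjusted p = 0.0205) and Myl12a (0.0473) gained and Tmsb10 (0.105) lost, 16 fell, and 10 ratios fell instead of 14, with Acta2/Actg1, Actg2/Actb, Tpm1/Tpm3 and Synpo2/Synpo lost (exact sign-flip test, smallest p 0.00781).

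Signs turned only for genes that did not pass with all 16 libraries, with log2 fold changes on the other side of 0 as follows. With sample weights they were 0.0814 for Acta1, 0.0175 for Actb, -0.34 for Myh10, 0.0556 for Tagln and -0.00043 for Cald1. With quantile normalization they were 0.0378 for Tagln, 0.0406 for Mcam, 0.13 for Pfn1 and -0.0148 for Tmsb4x, and with median ratio scaling 0.0785 for Vim. Without Saline 7 and Saline 8 they were 0.0187 for Actb, -0.30 for Myh10 and 0.0671 for Tagln. Without Saline 2 as well they were 0.23 for Acta1, 0.0682 for Actb, -0.46 for Myh10 (adjusted p = 0.0326), 0.16 for Tagln and -0.16 for Cald1. Without 1 library Acta1 was at -0.71 to 0.11 and Myh10 at -0.11 to 0.14. The causes were not tested. Genes under a few FPKM, such as Acta1, Actc1 and Smtnl2, rest on few reads in some libraries.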
